A study of Mus musculus with 2 samples.

Results

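The 39 genes described here are those of B-cell receptor signalling and B-cell identity, a set named by function: the signalling chains Cd79a and Cd79b, 9 co-receptors and surface receptors, 3 inhibitory lectin receptors, 9 kinases, adaptors and phospholipases, 10 transcription factors, 3 costimulatory molecules and 3 further proteins. Their levels were measured by total RNA sequencing of neutrophils taken from the peripheral blood of C57BL/6J mice, adults aged 5 to 6 weeks. All 39 symbols matched a single entry each among the 55536 gene entries of the main gene table, and all are protein-coding. The study holds 2 libraries of a single group, labelled biological replicates 1 and 2, with 22646960 and 21471639 counts. Both carry the same donor identifier in the labels, so the spread between them may be technical, and with no second condition no test between conditions was possible.

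The B-cell receptor is a surface immunoglobulin bound to a heterodimer of Cd79a and Cd79b. Each of these chains carries an immunoreceptor tyrosine-based activation motif (ITAM), a pair of tyrosines that Src-family kinases such as Lyn and Blk phosphorylate and that Syk then binds. The signal passes through the adaptor Blnk and the kinase Btk to the phospholipase Plcg2, while receptors such as Cd22 carry inhibitory motifs (ITIMs) that recruit the phosphatase Ptpn6. B-cell identity is held by transcription factors such as Ebf1 and Pax5. Neutrophils carry no antigen receptor, but several of the members, among them Btk, Plcg2, Dok3 and Mef2c, are also known from myeloid cells.

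The coding stretches of the 2 ITAMs are shown because every annotated transcript of Cd79a and Cd79b holds its ITAM, so that no part of these genes' levels came from transcripts without it. They were read from the GENCODE M21 transcripts on GRCm38, 5′ to 3′ on the coding strand, with the tyrosine codons in capitals. The Cd79a stretch covers codons 182 to 196 of 220 and lies at chr7:24901296-24901469 on the plus strand. The Cd79b stretch covers codons 195 to 209 of 228 and lies at chr11:106311867-106312012 on the minus strand. Each stretch is 45 bases long and is interrupted by an intron in the genome.
Cd79a ITAM: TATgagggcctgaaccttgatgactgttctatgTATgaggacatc
Cd79b ITAM: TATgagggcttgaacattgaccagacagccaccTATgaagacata

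Every member was detected in both libraries. Levels are given as TPM, a length-corrected share of a library's transcripts on a fixed scale. Detection meant 1 TPM or more in each library, which 35% of the 21951 protein-coding genes reached. Of the 39 members, 37 reached 5 TPM in both libraries, against 14.6% of protein-coding genes, and 30 reached 10 TPM, against 7.23%. The members were chosen with earlier results of these data known, so these shares are a description only. Among protein-coding genes ranked by mean TPM, 28 members stood in the first 1000 and 0 in the first 100. The median member stood at 21.9 TPM in replicate 1 and 18.2 in replicate 2, against 4.43 and 4.16 for detected protein-coding genes. In bulk RNA, fewer cells of a type and less RNA per cell cannot be told apart, and which cells carried these RNAs was not tested.

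**Figure D1:**
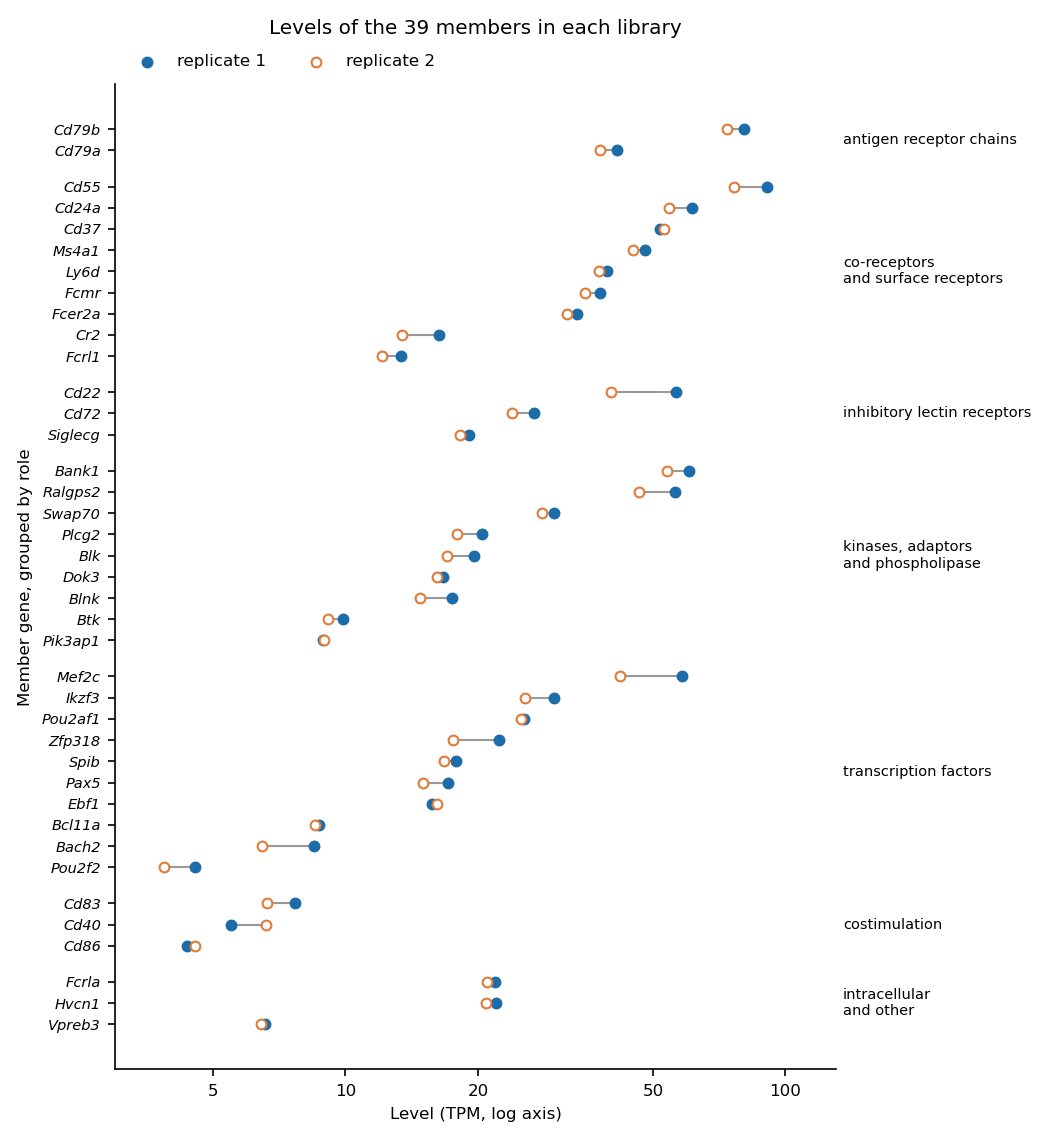
Level of each member in replicate 1 (filled) and replicate 2 (open) in TPM on a log axis, grouped by role. Cd55, at 90.9 and 76.2 TPM, has the highest mean, and Pou2f2, at 4.56 and 3.86 TPM, has the lowest mean.

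The antigen receptor chains were both abundant. Cd79b (ENSMUSG00000040592.11, chromosome 11, 106311341 to 106314762) had 80.6 TPM in replicate 1 and 73.6 in replicate 2. Cd79a (ENSMUSG00000003379.7, chromosome 7, 24897381 to 24902197) had 41.4 and 37.8 TPM. Cd79b exceeded Cd79a in both libraries and the ranges did not overlap. The TPM ratio of Cd79a to Cd79b was 0.514 in each library. The alignment-free table, a second deposited estimate on the same transcripts, put this ratio at 0.634 in replicate 1 and 0.611 in replicate 2, so the value depends on the method while the order does not. The 2 chains together took 0.0594% of all counts in replicate 1 and 0.0578% in replicate 2.

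Among the co-receptors and surface receptors, levels ran over a range of 12.1 to 90.9 TPM. Cd55, which protects cells from complement, led the whole set in the M21 gene table with 90.9 TPM in replicate 1 and 76.2 in replicate 2, a range that overlaps that of Cd79b. In the alignment-free table Cd55 had 123.0 and 98.9 TPM and Ralgps2, the highest there, 144.6 and 122.9. Cd24a, a glycosylated surface anchor protein, had 61.3 and 54.3 TPM, and the tetraspanin Cd37 had 51.7 and 53.0. These 3 leading genes are also expressed in myeloid cells. Of those known mainly from the B lineage, Ms4a1, which encodes CD20, was the highest at 47.9 and 44.9 TPM. Ly6d, a lymphoid surface protein, had 39.4 and 37.8 TPM. The IgM receptor Fcmr had 37.8 and 35.0 TPM. Fcer2a, the low-affinity IgE receptor CD23, had 33.6 and 31.8 TPM. Cr2, the complement receptor CD21, was lower at 16.4 and 13.5 TPM, and Fcrl1, an Fc receptor-like activator, was the lowest of the role at 13.4 and 12.1. Fcer2a thus stood above Cr2 by a TPM ratio of 2.05 in replicate 1 and 2.36 in replicate 2.

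Of the inhibitory lectin receptors, Cd22 was the highest. Cd22 (ENSMUSG00000030577.14, chromosome 7, 30865402 to 30880342), a sialic acid-binding lectin that dampens the receptor, had 56.4 TPM in replicate 1 and 40.1 in replicate 2. Cd72 (ENSMUSG00000028459.11, chromosome 4, 43446462 to 43454628), a C-type lectin-like inhibitor, had 26.9 and 23.9 TPM. Siglecg (ENSMUSG00000030468.12, chromosome 7, 43408204 to 43418358), the second sialic acid-binding inhibitor, had 19.1 and 18.2 TPM. The order Cd22, Cd72, Siglecg held in both libraries without overlap. Ptpn6, the phosphatase that these receptors recruit, stood higher at 189.2 and 158.3 TPM, and the TPM ratio of Cd22 to Ptpn6 was 0.298 in replicate 1 and 0.254 in replicate 2.

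The ITIM coding stretches of these receptors are shown because the transcripts whose annotated coding sequence holds them took only part of each gene's TPM. A stretch was kept where the coding sequence of the named transcript matched the motif pattern in the cytoplasmic end of the protein. The central tyrosine codon is in capitals. The label ITIM marks a match to this pattern only, and what binds at each site was not tested. Those of Cd22 come from Cd22-201 on the minus strand of chromosome 7, at chr7:30867494-30867511, chr7:30866600-30866617 and chr7:30866540-30866557. Those of Cd72 come from Cd72-203 on the minus strand, at chr4:43454498-43454515 and chr4:43454306-43454323. Those of Siglecg come from Siglecg-201 on the plus strand, at chr7:43412688-43412705, chr7:43417979-43417996 and chr7:43418048-43418065.
Cd22 ITIM 1: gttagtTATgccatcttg
Cd22 ITIM 2: atccatTACtcagagctg
Cd22 ITIM 3: gtagacTATgtgaccctc
Cd72 ITIM 1: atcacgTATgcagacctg
Cd72 ITIM 2: ctcaccTACgagaatgtg
Siglecg ITIM 1: ctggacTACatcaatgtg
Siglecg ITIM 2: ctccacTATgctgctctc
Siglecg ITIM 3: tctgatTACacagaggtc

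Only annotated coding sequences were searched for these stretches. For Cd22, 6 of 16 annotated transcripts held the first stretch in their coding sequence. They took 34.7% of the gene's TPM in replicate 1 and 46.7% in replicate 2. By expected counts the same transcripts took 70.4% and 74.4%. The leading transcripts not among them, Cd22-211 and Cd22-204, are only 420 and 367 bases long, and a short transcript gains TPM from few reads. For Cd72, 5 of 10 transcripts coded for the first stretch, with 36.6% and 51.0% of the TPM and 65.7% and 75.9% of the counts. For Siglecg, 1 of 6 transcripts coded for its first stretch, with 34.7% and 29.7% of the TPM and 25.4% and 23.3% of the counts. Siglecg is thus the inhibitory receptor for which reads, and not only length-corrected levels, lay mostly outside the ITIM-coding transcript.

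The intracellular signalling members ranged from 8.89 to 60.5 TPM. The scaffold Bank1, which links the receptor to calcium release, had 60.5 TPM in replicate 1 and 53.9 in replicate 2. Ralgps2, an exchange factor for Ral GTPases, had 56.2 and 46.5 TPM. Bank1 led in the M21 gene table alone: on the older M4 gene models Ralgps2 had 56.4 and 46.7 TPM and Bank1 44.7 and 40.9, and in the alignment-free table Ralgps2 had 144.6 and 122.9 and Bank1 103.0 and 89.3. Swap70, a Rac-binding exchange factor, had 29.7 and 27.9 TPM. The phospholipase Plcg2 had 20.5 and 17.9 TPM, the Src-family kinase Blk 19.6 and 17.0, the inhibitory adaptor Dok3 16.6 and 16.1, and the adaptor Blnk 17.4 and 14.7. The lower end held Btk, at 9.87 and 9.15 TPM, and Pik3ap1, the adaptor BCAP that brings in phosphoinositide 3-kinase, at 8.89 and 8.95.

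Within the cascade, Lyn and Syk stood above Blk and Btk. Lyn, the Src-family kinase that myeloid cells also use, had 49.3 TPM in replicate 1 and 43.2 in replicate 2, and the TPM ratio of Blk to Lyn was 0.398 and 0.393. Syk had 67.6 and 63.4 TPM, and the TPM ratio of Btk to Syk was 0.146 and 0.144, or 0.233 and 0.236 in the alignment-free table. Plcg2 exceeded Btk by a TPM ratio of 2.07 in replicate 1 and 1.96 in replicate 2, and by 1.31 and 1.21 in the alignment-free table.

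The transcription factors ranged from 3.86 to 58.1 TPM. Mef2c, a MADS-box factor used in B and myeloid cells, had the highest value with 58.1 TPM in replicate 1 and 42.1 in replicate 2. Ikzf3, the lymphoid factor Aiolos, had 29.7 and 25.6 TPM. On M4 the order of these factors turned, with 17.2 and 15.3 TPM for Mef2c and 30.1 and 25.9 for Ikzf3. Pou2af1, the coactivator that joins octamer-binding factors, had 25.5 and 25.1 TPM. Zfp318, which B cells need to express IgD beside IgM, had 22.4 and 17.6 TPM, and the ETS factor Spib had 17.8 and 16.7. The commitment factors Pax5 and Ebf1 lay side by side, with 17.1 and 15.0 TPM for Pax5 and 15.8 and 16.1 for Ebf1, so their order differed between the libraries in the M21 gene table. Pax5 was the higher in both libraries on M4, with 23.6 and 21.3 TPM against 15.9 and 16.2 for Ebf1, and in the alignment-free table, with 45.6 and 36.0 against 40.9 and 34.2. Bcl11a, needed for early lymphoid development, had 8.73 and 8.52 TPM, and Bach2, a repressor of plasma cell fate, 8.50 and 6.47. Pou2f2, the octamer-binding factor Oct2 itself, had the lowest mean of the members, at 4.56 and 3.86 TPM, while in the alignment-free table Cd86 was lower. The TPM ratio of Pou2af1 to Pou2f2 was 5.59 and 6.49, and 3.26 and 4.27 in the alignment-free table.

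The costimulatory members were the lowest role. The activation marker Cd83 had 7.67 TPM in replicate 1 and 6.63 in replicate 2, Cd40, the receptor for T-cell help, 5.49 and 6.61, and Cd86, the ligand of CD28, 4.36 and 4.56. The median of the role was 6.05 ± 0.792 TPM (SD, n = 2), against 58.4 ± 3.75 for the antigen receptor chains and 38.6 ± 1.13 for the co-receptors. Of the remaining members, the voltage-gated proton channel Hvcn1 had 21.98 and 20.88 TPM, the intracellular Fc receptor-like protein Fcrla 21.89 and 20.99, and Vpreb3, a homologue of the surrogate light chain, 6.57 and 6.44. Ranked by mean, 24 of the 38 neighbouring pairs of members had overlapping ranges over the 2 libraries, so the fine order of levels is not resolved.

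The members were also split by known breadth of expression. The 26 members mostly of the B lineage had a median level of 4.45 ± 0.121 as log2(TPM + 1), and the 13 members also known from myeloid cells had 4.33 ± 0.130 (SD, n = 2 each). The difference between these medians was 0.11 ± 0.0090 on that scale, but 0.38 on M4 and 0.33 in the alignment-free table. All 39 members had a median of 4.39 ± 0.180, against 4.89 ± 0.0750 for a list of 15 neutrophil markers, a difference of -0.50 ± 0.105, and of -0.94 on M4.

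The cell type given in the labels was checked on that list. All 15 neutrophil markers were detected. The calprotectin gene S100a9 had 1123 TPM in replicate 1 and 1275 in replicate 2, its partner S100a8 786 and 712, and Ly6g, the surface antigen used to sort mouse neutrophils, 1.91 and 2.29 as the lowest. Summed over the list, the markers held 2582 and 2611 TPM, and the 39 members 1132 and 1007. Most of the marker sum came from S100a9 and S100a8, and the other markers together held less than the members. The median neutrophil marker stood at 29.8 and 27.6 TPM, and the median member at 21.9 and 18.2. The T-cell, monocyte, dendritic cell and platelet lists had lower sums and medians than the neutrophil markers. Each of these lists held genes above the lowest neutrophil markers, Ly6g and Cd177 (3.50 and 4.10 TPM). Of 12 T-cell genes 11 were detected, with summed levels of 41.9 and 39.8 TPM, led by Cd3g (7.74 and 6.62) and Trbc2 (6.32 and 6.66), with Cd4 lowest at 0.58 in each library. Of 12 monocyte genes 10 were detected, at 66.0 and 61.2 TPM summed, led by Nr4a1 (15.9 and 15.3) and Ms4a4c (11.5 and 10.5), with Ace lowest at 0.64 and 0.42. Of 9 dendritic cell genes 2 were detected, Irf7 (10.5 and 10.9) and Tcf4 (10.2 and 8.88), which other cells share, while Siglech, a marker of plasmacytoid cells, stood at 0.03 and 0.04, and Xcr1, a marker of conventional cells, was the lowest at 0.01 in replicate 1 and 0 in replicate 2. The list summed to 23.4 and 23.1 TPM. Of 10 platelet genes 6 were detected, at 28.5 and 29.2 TPM summed, led by Ppbp (8.70 and 8.77) and Tubb1 (5.31 and 5.82), with Gp6 lowest at 0.28 and 0.39. The part of these cells in the member levels was not tested.

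**Figure D2:**
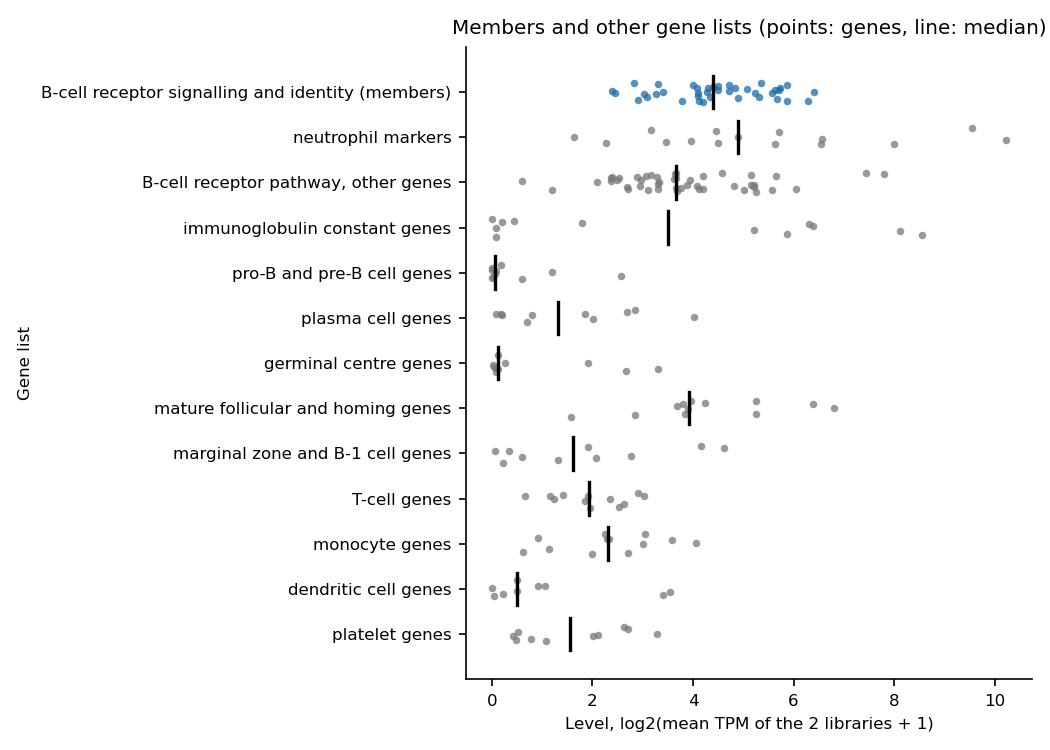
Level of each gene as log2 of the mean TPM of the 2 libraries plus 1, for the 39 members (top) and 12 other lists, with a line at each list's median. The median of the members, 4.39, lies between that of the neutrophil markers, 4.89, and that of the mature follicular and homing genes, 3.92, and the pro-B and pre-B and germinal centre lists lie near 0.

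The rest of the receptor pathway was present as well. Of 46 further pathway genes measured, 45 were detected, with a median of 11.9 TPM in replicate 1 and 10.98 in replicate 2, against 21.9 and 18.2 for the members. The leading phosphatase Ptprc, which encodes CD45, had 234.3 and 209.0 TPM, followed by Ptpn6, and the calcium-responsive factor Nfatc2 was the lowest at 0.58 and 0.43. Immunoglobulin constant genes set the isotypes: Igkc had 381.4 and 363.2 TPM, Ighm 290.1 and 261.3, and Ighd 85.3 and 78.8, while Ighe had 0 counts in both libraries, which allows at most 3 counts in each. The TPM ratio of Ighd to Ighm was 0.294 in replicate 1 and 0.301 in replicate 2. The switched genes Ighg1, Ighg2b, Ighg2c and Ighg3 each stayed under 0.5 TPM, and Igha had 2.39 and 2.57.

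Lists for stages of B-cell life differed in level. All 12 genes of mature follicular cells and homing were detected, with a median of 14.7 TPM in replicate 1 and 13.6 in replicate 2. The class II chaperone subunit H2-Ob had 86.1 and 78.6 TPM, and Foxo1 was the lowest at 2.01 and 1.93. Of 10 pro-B and pre-B genes only Il7r (4.87 and 4.99) and Cd93 (1.35 and 1.23) were detected, Rag1 stood at 0.13 and 0.14, and Vpreb1 and Vpreb2 had 0 counts. Of 10 plasma cell genes 5 were detected, led by Xbp1 (15.4 and 14.9) and Mzb1 (6.64 and 5.82), with Jchain at 0.58 and 0.67 and Tnfrsf17 the lowest at 0 and 0.12. Of 10 germinal centre genes 3 were detected, led by Bcl6 (9.63 and 8.17) and Fas (5.55 and 5.16). Gcsam was the lowest at 0.03 and 0. Of 10 marginal zone and B-1 genes 6 were detected, led by Plac8 (24.7 and 22.5) and Cd9 (17.1 and 16.7), with S1pr3 lowest at 0.04 and 0.05.

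The promoters were read for the octamer, the element that Pou2f2 binds with Pou2af1. RefSeq promoter windows on GRCm38.p6, from 250 bases before to 50 after the start site, were found for 29 of the 39 members, in 36 windows. The octamer ATGCAAAT on either strand lay in 2 of these 36 windows, 5.56%, and in 1.74% of all 32851 windows. Both are shown as stretches of 30 bases with the octamer in capitals, which reads here as its reverse complement. In Vpreb3 it ends 37 bases before the start site, within chr10:75948244-75948273 on the plus strand. In Blnk it ends 122 bases before the start site, within chr19:40994333-40994362 on the minus strand, a position that GENCODE M21, with a start further upstream, places in the first exon of Blnk-201.
Vpreb3 octamer: tcagtgggctgATTTGCATgctctattgtg
Blnk octamer: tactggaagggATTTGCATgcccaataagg

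A core of the ETS motif that Spib and its relatives bind, GAGGAAGT on either strand, lay in 3 of the 36 windows, those of Cd37, Cd72 and Fcrl1, and in 3.20% of all windows. None of these windows holds both the octamer and this core. These matches describe the letters of the windows only.

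The 2 libraries gave close levels for the members. By counts scaled to the library totals, 0 of the 39 members differed by 1.5 or more between replicate 1 and replicate 2 with at least 50 counts. Of 11981 genes of all kinds 8.48% did, 4.31% higher and 4.17% lower in replicate 1. Of these genes 7479 had at least as many counts as the least counted member, and no such share was computed for them alone. The comparison is thus not matched for depth. The count ratio of replicate 1 to replicate 2 ran from 0.837 in Cd86 to 1.17 in Cr2. It was above 1 in 27 of 39 members, 69.2%, against 54.1% of all genes, and in 24 of 39 after scaling with TMM factors or with size factors. The median member had a log2 ratio of 0.046, against 0.019 for all genes.

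Some of these small differences exceeded counting error. The exact binomial 95% interval of the count ratio, which covers counting error only, lay above 1 for 17 members, below 1 for 6 and spanned 1 for 16. It lay above 1 for 23.4% and below 1 for 17.6% of the 11981 genes of all kinds. Among the 7479 genes with at least as many counts as the least counted member, these shares were 26.6% and 17.8%, with no closer match for depth. The members with the highest ratios were Cr2, with 5828 and 4736 counts and a ratio of 1.17 (1.12 to 1.21), Cd55, with 18277 and 15170 counts and 1.14 (1.12 to 1.17), and Blnk, with 3187 and 2678 counts and 1.13 (1.07 to 1.19). Those with the lowest were Cd86, with 530 and 600 counts and 0.837 (0.744 to 0.943), Cd72, with 1964 and 2060 counts and 0.904 (0.849 to 0.962), and Cd40, with 867 and 909 counts and 0.904 (0.823 to 0.994). With a single group no replicate error stands behind these intervals.

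TPM moved further than the counts for some members. For 7 members the TPM ratio of replicate 1 to replicate 2 lay beyond 1.2 in either direction, while 0 members had such a count ratio. The share of all genes beyond this limit was not computed. As a median, the SD of TPM over its mean was 6.43% for the members and 7.87% for detected protein-coding genes. Cd22 had a TPM ratio of 1.405 and a count ratio of 1.05 (1.02 to 1.08). Its effective length, the mean transcript length over which the counts were spread, was 1828 bases in replicate 1 and 2316 in replicate 2. Mef2c had a TPM ratio of 1.38 and a count ratio of 1.09, with effective lengths of 2537 and 3016 bases. Bach2 had 1.31 and 1.07, with 4196 and 4883 bases. Zfp318, Ralgps2 and Cr2 were the further members higher in replicate 1, and Cd40, with a TPM ratio of 0.831 and a count ratio of 0.904, was the member lower in it. For Cd72 the ratios took opposite sides of 1, at 1.13 for TPM and 0.904 for counts.

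**Figure D3:**
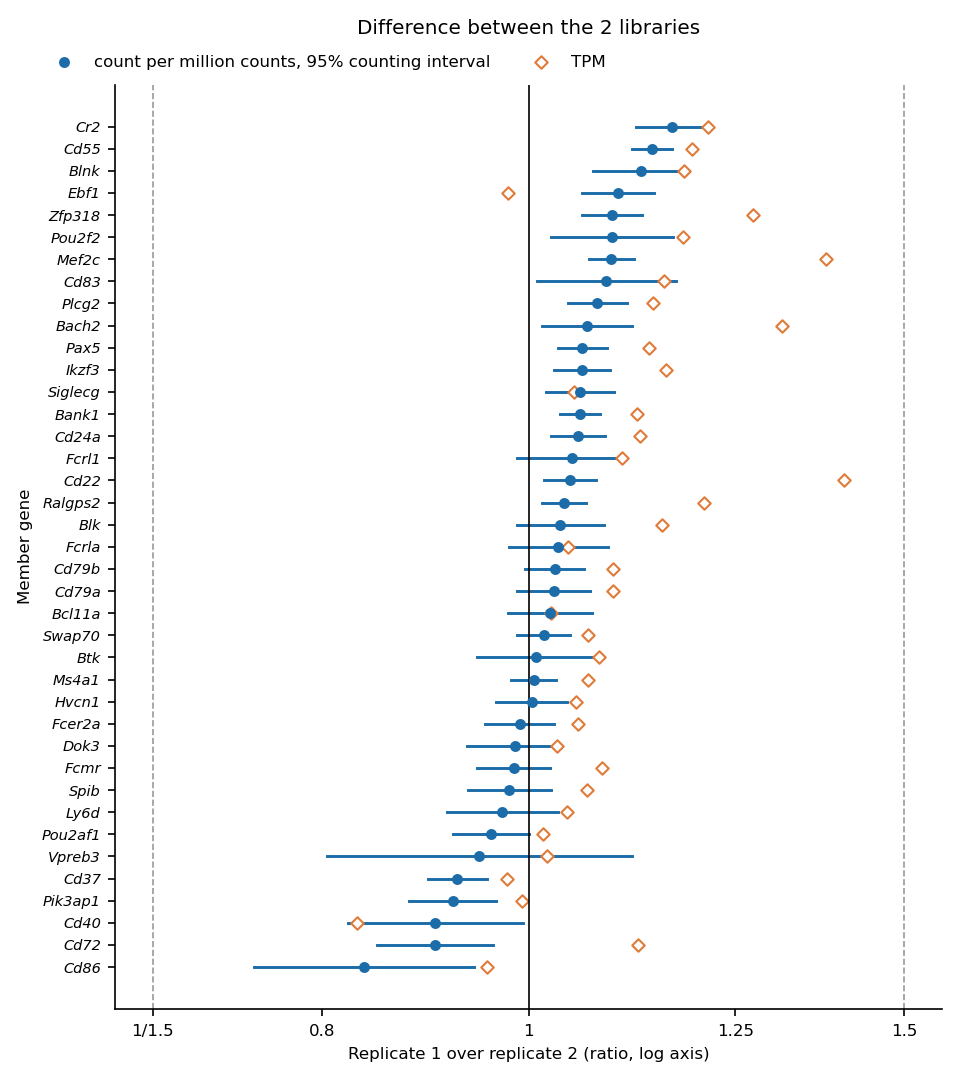
Ratio of replicate 1 to replicate 2 for each member on a log axis, as counts scaled to library totals with their 95% counting interval (filled) and as TPM (open diamonds), with dashed lines at a ratio of 1.5 in either direction. All count ratios lie between 0.837 and 1.17, and the diamonds of Cd22, Mef2c and Bach2 lie above 1.3.

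The transcripts behind the levels were examined in the M21 transcript table. The members have 248 annotated transcripts, of which 43 had a share of 0 in both libraries. Cd79a, Ly6d and Plcg2 have a single transcript, and Mef2c has the most with 31. Of the 36 members with more than 1 transcript, 31 had the same leading transcript in both libraries. In 23 it was the same in both libraries and also in the alignment-free table, 63.9% of them, against 54.9% of 7199 detected protein-coding genes. For 19 the leading transcript took under 60% of the gene's TPM on average.

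Protein-coding transcripts took 79.1% of the members' summed TPM in replicate 1 and 80.4% in replicate 2, and retained-intron transcripts 13.8% and 13.7%. For neutrophil markers the retained-intron share was 1.90% and 1.32%, or 5.27% and 4.50% in the alignment-free table, where that of the members was 14.1% and 14.2%. For detected protein-coding genes it was 17.6% and 17.1% in the M21 table. By expected counts the retained-intron share was 12.8% and 12.4% for the members and 12.5% and 12.3% for detected protein-coding genes. For neutrophil markers it was 0.860% and 0.644% of the counts. The leading transcript was not protein-coding in both libraries for 4 of the 36 members, Cd83, Dok3, Zfp318 and Cd86, 11.1% of them, against 13.3% of 7200 detected protein-coding genes. Reads from unspliced RNA can match such models, and their part was not tested.

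**Figure D4:**
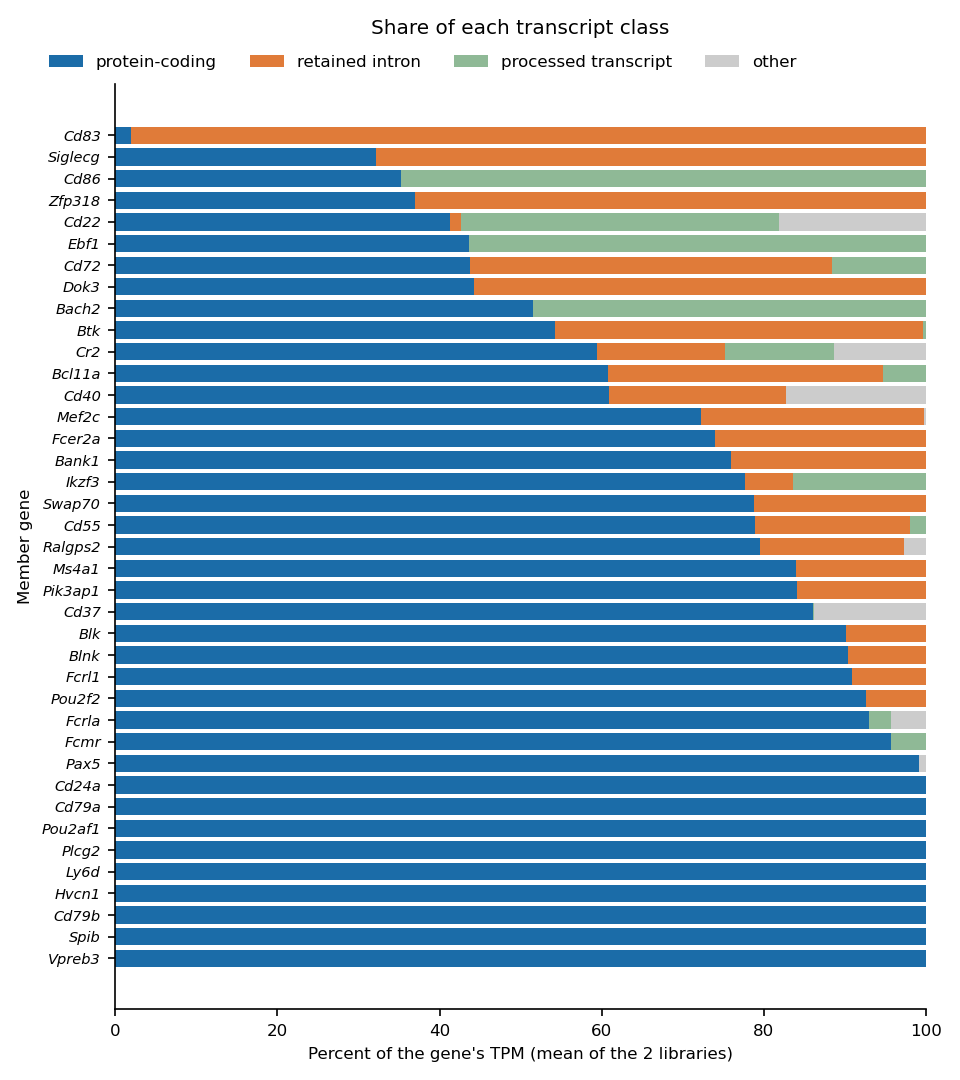
Percent of each member's TPM in protein-coding, retained-intron, processed and other transcripts, as the mean of the 2 libraries. Cd83 stands alone at the top with 98.0% and 98.1% of its TPM in a retained-intron transcript, and the lowest rows, among them Cd79a and Cd79b, hold protein-coding transcripts alone.

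Cd83 was the extreme case. Its retained-intron transcript Cd83-202 took 98.0% of the gene's TPM in replicate 1 and 98.1% in replicate 2, and the protein-coding Cd83-201 took 1.98% and 1.93%. The alignment-free table gave Cd83-202 95.63% and 95.04%. Cd83-202 starts further downstream than Cd83-201 and keeps the first intron of 95 bases, chr13:43785251-43785345 on the plus strand. The retained stretch is shown with the intron in capitals and 20 exon bases on either side, and below it the spliced junction, with the joined bases in capitals. Both were read from the GENCODE M21 transcripts. Reads across the junction were not analysed here.
Cd83 retained: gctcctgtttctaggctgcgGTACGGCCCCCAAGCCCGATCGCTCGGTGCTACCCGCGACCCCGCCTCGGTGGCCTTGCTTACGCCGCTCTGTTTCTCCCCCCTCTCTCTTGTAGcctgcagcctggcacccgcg
Cd83 spliced: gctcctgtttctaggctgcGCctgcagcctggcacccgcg

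Dok3 was the second member led by a retained intron. Dok3-203 took 57.5% of the TPM in replicate 1 and 53.9% in replicate 2, and 67.8% and 61.6% in the alignment-free table. It keeps an intron of 811 bases, chr13:55527638-55528448 on the minus strand, whose first and last 30 bases are shown in capitals beside 20 exon bases each. The protein-coding remainder went to different transcripts in the 2 tables: Dok3-201 had 40.3% and 46.1% in the M21 table and 0% in the alignment-free table, where Dok3-202 had 32.2% and 38.4%.
Dok3 donor side: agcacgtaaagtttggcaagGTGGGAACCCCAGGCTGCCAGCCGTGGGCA
Dok3 acceptor side: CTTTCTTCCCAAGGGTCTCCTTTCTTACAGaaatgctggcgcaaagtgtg
Dok3 spliced: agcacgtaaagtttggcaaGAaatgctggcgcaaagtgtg

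For Zfp318 the picture changed with the scale. The short retained-intron transcript Zfp318-203, of 958 bases, led by TPM with 37.3% in replicate 1 and 31.7% in replicate 2, but by expected counts it held 8.04% and 6.28%. The full-length Zfp318-201, of 13060 bases, held 21.36% and 23.95% of the TPM and 74.9% and 76.6% of the counts. Cd86 behaved alike, with 43.6% and 51.1% of the TPM in the processed transcript Cd86-203 and 64.7% and 65.0% of the counts in the protein-coding Cd86-201.

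The other 5 members were led by different transcripts in the 2 libraries. Cd22-204, a processed transcript of 367 bases, took 21.6% of the TPM in replicate 1 and 13.8% in replicate 2, where Cd22-201 led with 21.4% against 18.6% in replicate 1. Cd72-210, a processed transcript, took 21.8% in replicate 1 and 0% in replicate 2, yet 35.2% and 30.7% in the alignment-free table. Siglecg-206, which retains an intron, took 37.9% and 29.5%, and the protein-coding Siglecg-201 34.7% and 29.7%. Mef2c-216, of 556 bases, took 16.7% and 3.82%, and Mef2c-209, with a retained intron, 14.4% and 16.2%. Cd40-201, the leading transcript in replicate 1, took 35.7% and 25.0%, and Cd40-202 took 29.8% and 29.4%.

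Further members kept their leading transcript between the libraries but not between the tables. Btk-201 took 51.3% of the TPM in replicate 1 and 55.6% in replicate 2, and the retained-intron Btk-204 took 47.8% and 43.0%, while the alignment-free table put Btk-204 first with 49.5% and 52.3%. Ebf1-201 took 44.2% and 36.3%, and the alignment-free table put the 349-base Ebf1-205 first with 36.6% and 32.9%. Cr2-202 took 43.3% and 42.3% in the M21 table and 14.0% and 18.1% in the alignment-free table. Hvcn1-201 took 59.2% and 62.2%, against 38.7% and 34.8% for Hvcn1-202, and in the alignment-free table of replicate 1 Hvcn1-202 led with 50.3%. Bach2, Fcrl1, Pou2f2 and Ralgps2 also changed their leading transcript between the tables.

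Other divided members kept the same leading transcript throughout. Pou2af1-201 took 60.5% and 59.5% of the TPM, and the shorter Pou2af1-202 the rest. Bcl11a-202 took 36.03% and 33.40%, close to the 34.7% and 33.1% of the retained-intron Bcl11a-205. Cd37-204 took 47.0% and 45.7%, Bank1-201 52.7% and 58.8%, and Cd55-201 57.5% and 57.4%. At the other end, Cd79b-202 took 94.4% and 95.3%, and Vpreb3-201 all of its gene's TPM in both libraries.

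The estimation method, and for some members the gene models, moved levels by more than the spread between the libraries. The alignment-free table gave every member a higher TPM than the M21 gene table, by a ratio of 1.33 to 4.25 with a median of 1.73, against a median of 1.82 for detected protein-coding genes. Bach2 had the highest of these ratios and Cd55 the lowest. Between the M21 and the older M4 gene models 28 of the 39 members stayed within 10%. The widest gap was in Mef2c, with 58.1 and 42.1 TPM on M21 and 17.2 and 15.3 on M4 in replicates 1 and 2. Pax5 went the other way, with 17.1 and 15.0 TPM on M21 and 23.6 and 21.3 on M4, although its expected counts were 11665 and 10438 on M21 and 2690 and 2383 on M4. Bank1 had 60.5 and 53.9 TPM on M21 and 44.7 and 40.9 on M4, and Fcer2a 33.6 and 31.8 on M21 and 25.5 and 24.1 on M4.

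**Figure D5:**
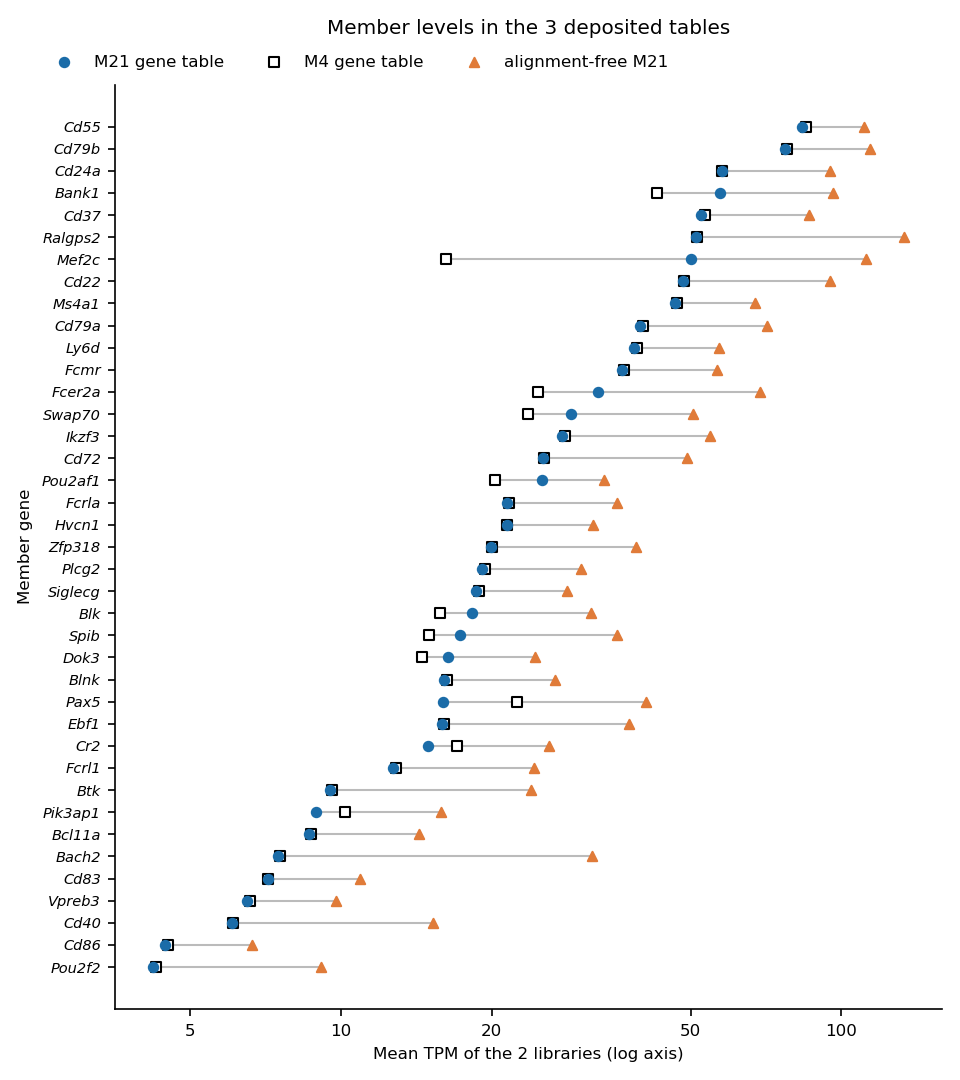
Mean TPM of the 2 libraries for each member on a log axis in the M21 gene table (circles), the M4 gene table (squares) and the alignment-free M21 table (triangles). Triangles lie right of the circles for all 39 members, and Mef2c has the widest gap between circle and square.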

How the data were processed

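Per the labels, ScriptSeq v2 libraries were made from 100 ng of total RNA, with sizes of 200 to 1000. The authors deposited gene tables on GENCODE M21 and M4 (mm10) with an expected count and a TPM per gene, M21 transcript tables with each transcript's share of its gene's TPM in percent, and alignment-free M21 transcript tables with an estimated count and a TPM, per the file headers. The deposited effective lengths and TPM bounds were read as a signal of how firmly an estimate was held, per the file headers. The programs, versions and strand setting behind the tables were not given in the sources used here, so overlapping genes may share reads. The M4 transcript tables were not used here.

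Main values came from the M21 gene table. Entries with no gene (26345, with 37.0 counts in replicate 1 and 46.4 in replicate 2) were left out. The members and all lists were chosen with earlier results of these data known. Named genes followed a rule: every antigen receptor chain and inhibitory receptor, the 3 highest and the lowest of each further role, the 2 highest and the lowest of each other list, divided or non-coding leading transcripts, and the 3 widest ratios each way between libraries. A few genes picked by this rule are left out of the text. Further genes were named after their values were seen, and the retained introns and motif searches were chosen in the same way. List levels are medians of log2(TPM + 1). Library comparisons used expected counts rounded to whole numbers, a ratio of at least 1.5 with at least 50 counts in the higher library, and exact conditional binomial 95% intervals, after a check on simulated data. No count model was fitted; TMM factors came from edgeR 4.0.16 and size factors from DESeq2 1.42.0 (R 4.3.3). Other steps ran in Python 3.11.15 (pandas 2.3.3, numpy 2.4.6, scipy 1.17.1, matplotlib 3.10.9). The intervals hold counting error alone, because PCR copies without molecular identifiers are not separate molecules. TPM shares its fixed total with abundant short RNAs, so messenger RNA levels are low on this scale. Alternatives were M4, the alignment-free table, TPM rescaled to nuclear protein-coding genes, other thresholds, pseudocounts and scalings, and each library alone.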

Additional observations from a re-analysis of the deposited data

How the results depend on the processing

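All 39 members stayed detected on M4 and in the alignment-free table, for which no share over all genes was computed, and 37 were at 5 TPM. Rescaling, 0.1 TPM, at least 10 counts and each library alone also left 39. Given the members' levels and counts, these settings could not lower that number, so they add no support. The median level of the members, 4.39 as log2(TPM + 1), was 5.20 in the alignment-free table and 7.87 with TPM rescaled to nuclear protein-coding genes, and 4.52 and 4.26 in replicates 1 and 2 alone. The members' median minus that of neutrophil markers, -0.50, was -0.94 on M4 and lay between -0.58 and -0.43 in single libraries. The B-lineage members' median minus that of members shared with myeloid cells, 0.11, was 0.38 on M4 and 0.33 in the alignment-free table, and 0.11 to 0.12 in single libraries. The cause of these shifts was not tested. No member passed a ratio of 1.5 between the libraries under TMM factors, size factors, no count minimum, M4 or the alignment-free table. The count of members with the same leading transcript was 23 of 36, 22 of 34 at 5 TPM and 24 with protein-coding transcripts only. It was 27 in replicate 1 alone and 25 in replicate 2 alone, and 31 in the M21 table alone and 32 in the alignment-free table alone. The single-library and single-table counts ask for less agreement and could not fall below 23. Single member levels moved beyond the spread between libraries for 12 of 39 members on M4 and for 39 in the alignment-free table. No paired analysis was possible because there is a single group. The counting interval of the ratio between libraries was widest for Vpreb3, with 295 counts in each library.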
